A study of Mus musculus with 24 samples.

Results

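The enzymes that make long polyunsaturated fatty acids and turn them into signalling lipids were followed in mouse skeletal muscle through 10 genes, Fads1, Fads2, Elovl5, Pla2g4a, Alox5, Alox5ap, Alox15, Ptgs1, Ptgs2 and Ephx2. Their probes were taken by the gene name printed in the scanner files, which gave 21 of the 56605 probes on the array. The 10 genes stand among 37325 gene names. The scanner software marked 10 of the 21 probes as well above background in at least 6 of 8 mice of some group, and these measured 8 of the 10 genes. Alox15 and Ptgs2 had no such probe and were not tested. The tested set held 19937 gene names in all.

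Mammals cannot make the parent omega-6 and omega-3 fatty acids, but lengthen and desaturate those they eat. Fads2 and Fads1 encode the desaturases of that route, and Elovl5 encodes an elongase that works between them. The products are stored in membrane phospholipids. Pla2g4a, the cytosolic phospholipase A2, frees arachidonic acid from them. Ptgs1 and Ptgs2, the cyclooxygenases, then lead to prostaglandins and thromboxane. Alox5 with its helper protein Alox5ap leads to leukotrienes, Alox15 to other hydroxylated fatty acids, and cytochrome P450 enzymes to epoxides that the soluble epoxide hydrolase Ephx2 breaks down. Leukotriene enzymes are best known from myeloid cells, which lie between the muscle fibres.

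Total RNA from 24 muscle samples was hybridised to one-colour oligonucleotide arrays, 1 array per sample and 8 per group. STD_Cont mice were on the low fat control diet and of the control lineage, HFD_Cont mice were on the high fat diet and of the same control lineage, and HFD_O3 mice were on the high fat diet and of the omega-3 lineage. The muscle taken, the strain, sex and age of the mice, and what the omega-3 lineage received were not stated in the labels used here. No low fat group of the omega-3 lineage was analysed here, so the lineage difference is one on the high fat diet and the diet difference one in the control lineage. Between 52.0 and 60.7% of an array's probes lay well above background, 0 spots were saturated, and each of the 3 slides held 2 or 3 arrays of every group. All 10 skeletal muscle markers, such as Acta1 and Ckm, were measured, with a mean log2 level of 8.47 to 9.41 on every array. Levels here are log2 processed signals relative to the array's own 75th percentile, so 0 is the level of a fairly bright probe. They compare 1 probe between arrays and say nothing of 1 gene against another. In whole tissue, fewer cells of a type and less RNA per cell cannot be told apart.

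A value for a gene is the value of 1 short stretch of its transcript. The first 30 bases of the 60-base probes that measured the 8 genes are given here, followed by those of the undetected Alox15 and Ptgs2 probes, read 5′ to 3′ in the sense of the transcript. For Fads1 and Alox5ap a second kept probe is shown, because whether the probes of a gene moved together bears on the results below.
Fads1, first probe: gagaatataggaacatgcccggagagacct
Fads1, second probe: tgagtacagctggcttctgtatctctagat
Fads2: gtgagttcactgaagaagtctggggagctg
Elovl5: ctcaatacaaaaattataacatttgatagt
Pla2g4a: cccattgtgtgtgaatgttattctgaacta
Alox5: tttatgcttcctccaattgcttgcatagag
Alox5ap, first probe: agagacgcatcataacgcaatgccgcgaag
Alox5ap, second probe: cttgtaatcagacacgtgttttcctaaaat
Ptgs1: gagccacacttagactctttccaaagatgt
Ephx2: taattcttttgagtatgcctgtgccatcag
Alox15: gctctggcaagtcatgaatcggtacgtggt
Ptgs2: tttttgaaaagtttgaagttagaacttagg

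On the mouse build mm9, which the scanner files use, the first Fads1 probe lay at chr19:10270530-10270589 on the plus strand and was designed to the gene's RefSeq transcript. The second lay at chr19:10261805-10261864 and was designed to a cDNA clone. The Fads2 probe lay on the minus strand of the same chromosome at chr19:10138750-10139180, a span of 431 bases for a 60-base probe, so it joins pieces that are apart in the genome. The Elovl5 probe lay at chr9:77832205-77832264, the Alox5 probe at chr6:116360326-116360385, and the Alox5ap probes at chr5:150099347-150099406 and chr5:150099572-150099631. The Pla2g4a probe lay at chr1:151676814-151676873, the Ptgs1 probe at chr2:36107644-36107703 and the Ephx2 probe at chr14:66703319-66703378. The guanine and cytosine share of these probes ran from 35.0% for Elovl5, Pla2g4a and the second Alox5ap probe to 51.7% for the first Alox5ap probe. An annotation of mm9 was not used here, so exon and intron positions are not stated.

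None of the 8 measured genes passed the test for a difference between the omega-3 and the control lineage on the high fat diet. With limma's moderated test and Benjamini-Hochberg adjustment over all names, 0 of 8 passed the threshold of 0.05, and 0% of all 19937 names did. At an unadjusted p under 0.05 the count was 1 of 8, Alox5, against 7.34% of all names. Of the 8 differences, 4 were above 0 and 4 below, with a median of -0.06 on the log2 scale beside -0.01 over all names. The smallest adjusted p among the 8 was 0.618. All 8 genes had overlapping groups, but overlap was not counted over all names, so this is not shown to be particular to them. Every interval given below is the 95% interval of the fit, and a p that misses the threshold does not show that the groups were alike.

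The diet comparison within the control lineage, HFD_Cont against STD_Cont, called 0 of the 8 genes, while 3.16% of all names passed. That share, 630 names, depended on the setting: alternatives over all 3 slides called 78 to 1216 names, and each slide alone 0. No member reached an unadjusted p under 0.05 there, against 16.8% of all names. Of the 8 differences, 4 again lay above 0, with a median of 0.02 beside 0.01 over all names, and the smallest adjusted p was 0.346. For HFD_O3 against STD_Cont, where diet and lineage both differ, 0 of 8 passed and 0.597% of all names did. At an unadjusted p under 0.05 the count was 1 of 8, Ephx2, against 11.4% of all names. Here 2 differences lay above 0 and 6 below, with a median of -0.11 beside -0.01 over all names. The 3 comparisons share groups, so their values for 1 gene are not independent of each other.

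**Figure D1:**
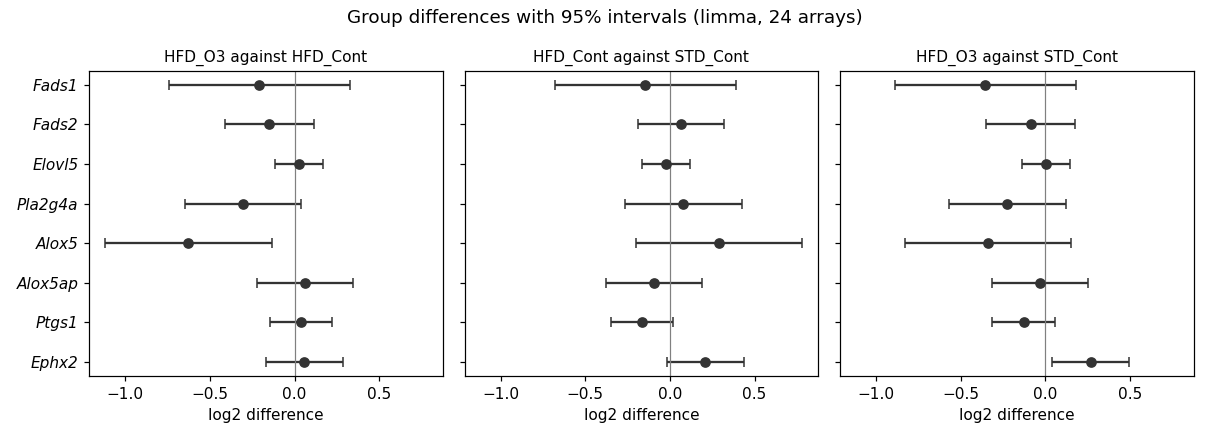
Log2 differences of the 8 measured genes in the 3 comparisons, with points for the fitted difference and bars for its 95% interval from limma on 24 arrays. Bars that miss 0 are those of Alox5 for HFD_O3 against HFD_Cont and of Ephx2 for HFD_O3 against STD_Cont, and neither gene passed after adjustment over all names.

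Among the desaturases, Fads1, the last desaturase on the way to arachidonic and eicosapentaenoic acid, had levels of -4.18 at the lowest, -3.31 at the median and -2.68 at the highest in HFD_O3. In HFD_Cont these were -3.67, -3.35 and -2.09, and in STD_Cont -3.50, -3.35 and -1.53. The medians of the groups were close, and 1 array each in STD_Cont and HFD_Cont stood high. The lineage difference was -0.21 ± 0.26 (SE, interval -0.74 to 0.33), with an adjusted p of 0.877. It was -0.044 with normexp background correction, -0.072 in the authors' deposited table and -0.099 as the mean of the gene's kept probes. With 1 array left out it ran from -0.31 to -0.056, the latter without HFD_Cont 2, and it was -0.093 without HFD_O3 1. The diet difference was -0.15 ± 0.26 (adjusted p 0.852).

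The Fads1 probes did not move together. The second probe, at lower signal and well above background on 19 of 24 arrays against 23 for the first, gave a lineage difference of 0.01 ± 0.15 and a diet difference of -0.24 ± 0.15 (adjusted p 0.993 and 0.484 over all kept probes). Over the 24 arrays, deviations from the group means at the 2 probes had a Pearson r of -0.08 (permutation p 0.704) and a Spearman rho of 0.01 (permutation p 0.948), and r was -0.03 without the 2 arrays farthest from the median. STD_Cont 4, the highest array at the first probe at -1.53, stood at -3.75 at the second, within the range of its group there (-4.36 to -3.54). The remaining Fads1 probe was well above background on 3 of 24 arrays, HFD_Cont 1, STD_Cont 2 and HFD_O3 1, and on none of the arrays that stood high at the first. A high single array in Fads1 was thus not shared between probes of the gene. What set those arrays apart was not tested.

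Fads2, the rate-limiting desaturase at the entry of the route, had levels in HFD_O3 of -2.71 at the lowest, -2.56 at the median and -2.27 at the highest, over 7 arrays because the spot of HFD_O3 1 was marked as non-uniform or outlying and left out. HFD_Cont ran from -2.71 over -2.49 to -1.59, and STD_Cont from -2.68 over -2.49 to -2.11. The groups overlapped over nearly their whole range, with HFD_Cont 3 alone above them. The lineage difference was -0.15 ± 0.13 (interval -0.41 to 0.11, adjusted p 0.822) and the diet difference 0.06 ± 0.12 (adjusted p 0.864). With 1 array left out the lineage difference ran from -0.20 to -0.037, the latter without HFD_Cont 3. It was -0.070 with normexp background correction and -0.081 in the authors' deposited table. Of the other 4 Fads2 probes, 1 cleared the background on 11 of 24 arrays and the rest on 0 to 3, and none passed the filter. The probe that cleared it on 11 arrays was highest in STD_Cont 4 (-2.25) and HFD_Cont 2 (-3.67). These were also the highest Fads1 arrays of their groups. In HFD_O3 the highest differed, HFD_O3 3 at that probe and HFD_O3 6 for Fads1.

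Elovl5, the elongase that acts on the products of Fads2, was the steadiest of the 8 genes between groups. Its levels were 0.03, 0.24 and 0.43 at the lowest, median and highest in HFD_O3, 0.02, 0.24 and 0.35 in HFD_Cont, and 0.03, 0.23 and 0.46 in STD_Cont. The ranges lay on top of each other. The lineage difference of 0.02 ± 0.07 had an interval of -0.12 to 0.17, the narrowest of the 8, and the diet difference was -0.02 ± 0.07 (interval -0.16 to 0.12). HFD_O3 against STD_Cont gave 0.00 ± 0.07. Its other 2 probes were well above background on 3 and 0 of 24 arrays.

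Pla2g4a, which releases arachidonic acid for all the branches that follow, ranged more widely in HFD_O3 than in the other groups. Its levels there were -3.85 at the lowest, -3.21 at the median and -2.51 at the highest, against -3.14, -2.88 and -2.61 in HFD_Cont and -3.30, -3.05 and -2.46 in STD_Cont. HFD_O3 held both the highest value of the 2 high fat groups and the lowest values, and 6 of its 8 arrays lay below the HFD_Cont median. The SD was 0.49 in HFD_O3, 0.20 in HFD_Cont and 0.29 in STD_Cont (n = 8 each), and the difference in spread was not tested. The lineage difference was -0.30 ± 0.17 (interval -0.65 to 0.04, adjusted p 0.720). It was -0.05 with normexp background correction, -0.16 in the authors' deposited table and -0.13 with the fibroblast level as a covariate. Without HFD_O3 arrays 1 and 7 together it was -0.40, and with 1 array left out it ran from -0.40 to -0.21. Within slides 1, 2 and 3 it was -0.42, -0.42 and -0.08.

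In the leukotriene branch, Alox5, the 5-lipoxygenase itself, showed the largest lineage difference in size of the 8 genes. Its levels in HFD_O3 were -4.69 at the lowest, -3.89 at the median and -2.91 at the highest. In HFD_Cont they were -4.04, -3.03 and -2.63, and in STD_Cont -4.56, -3.32 and -3.09. The groups overlapped, and 7 of 8 HFD_O3 arrays lay below the HFD_Cont median and 1, HFD_O3 4, above it. The probe was dim: it was well above background on 7 of 8 STD_Cont, 8 of 8 HFD_Cont and 4 of 8 HFD_O3 arrays.

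The lineage difference in Alox5 was -0.63 ± 0.24 (interval -1.12 to -0.14), a ratio of 0.647, with an unadjusted p of 0.0146 and an adjusted p of 0.618, so it did not pass. Within the slides it was -0.99, -0.45 and -0.59 on slides 1, 2 and 3. It was -0.14 with normexp background correction, which also adds an offset, and -0.25 in the authors' deposited table, which is also normalized and filtered differently. Which of these steps moved it was not tested. It was -0.23 with the level of fibroblast markers as a covariate, described with the markers below. The diet difference was 0.29 ± 0.24 (adjusted p 0.605), and HFD_O3 against STD_Cont gave -0.34 ± 0.24 (adjusted p 0.659).

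Alox5ap, the membrane protein that hands arachidonic acid to Alox5, gave a difference near 0 in the same comparison. Levels were -0.87, -0.62 and 0.22 at the lowest, median and highest in HFD_O3, -1.21, -0.52 and -0.28 in HFD_Cont, and -0.86, -0.45 and -0.23 in STD_Cont. HFD_O3 4 was the highest array and HFD_Cont 6 the lowest, and the rest overlapped. The lineage difference was 0.06 ± 0.14 (interval -0.22 to 0.35, adjusted p 0.937) and the diet difference -0.10 ± 0.14 (adjusted p 0.801). The second Alox5ap probe gave 0.05 ± 0.15 and -0.08 ± 0.15. Unlike those of Fads1, the Alox5ap probes moved together over arrays, with a Pearson r of 0.93 and a Spearman rho of 0.94 over 24 arrays (permutation p 1e-05 for both, the smallest the permutations can give) and r of 0.89 without the 2 farthest arrays.

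Alox15, which in the mouse makes mainly 12-hydroxylated products, was well above background on 0 of 24 arrays. Its level is not described further. Ptgs2, the inducible cyclooxygenase, was well above background on 2 of 8 STD_Cont arrays and on 1 of 8 in each high fat group, 4 of 24 in all, and was not tested. Both genes had 1 probe each.

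Ptgs1, the constitutive cyclooxygenase, was well above background on 24 of 24 arrays. Its levels were -1.36, -1.15 and -0.81 at the lowest, median and highest in HFD_O3, -1.45, -1.14 and -0.94 in HFD_Cont, and -1.19, -1.03 and -0.73 in STD_Cont. In each high fat group 6 of 8 arrays lay below the STD_Cont median, and the ranges overlapped. The diet difference was -0.16 ± 0.09 (interval -0.35 to 0.02, adjusted p 0.365), and within the slides -0.14, -0.18 and -0.17. The lineage difference was 0.04 ± 0.09 (interval -0.15 to 0.22, adjusted p 0.950).

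Ephx2, which turns epoxides of arachidonic and the omega-3 acids into diols, was bright on every array. Its levels were 4.15, 4.35 and 4.71 at the lowest, median and highest in HFD_O3, 4.05, 4.28 and 4.83 in HFD_Cont, and 3.87, 4.07 and 4.50 in STD_Cont. All 8 HFD_O3 arrays and 6 of 8 HFD_Cont arrays lay above the STD_Cont median, though the ranges overlapped. HFD_O3 against STD_Cont gave 0.27 ± 0.11 (interval 0.04 to 0.49), a ratio of 1.20, with an unadjusted p of 0.0227 and an adjusted p of 0.333, so it did not pass. Within the slides this was 0.25, 0.40 and 0.22. The diet difference in the control lineage was 0.21 ± 0.11 (interval -0.02 to 0.44, adjusted p 0.346), but 0.51 on slide 1 against 0.07 and 0.04 on slides 2 and 3. The lineage difference was 0.06 ± 0.11 (interval -0.17 to 0.28), and -0.26 on slide 1 against 0.33 and 0.18 on slides 2 and 3.

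**Figure D2:**
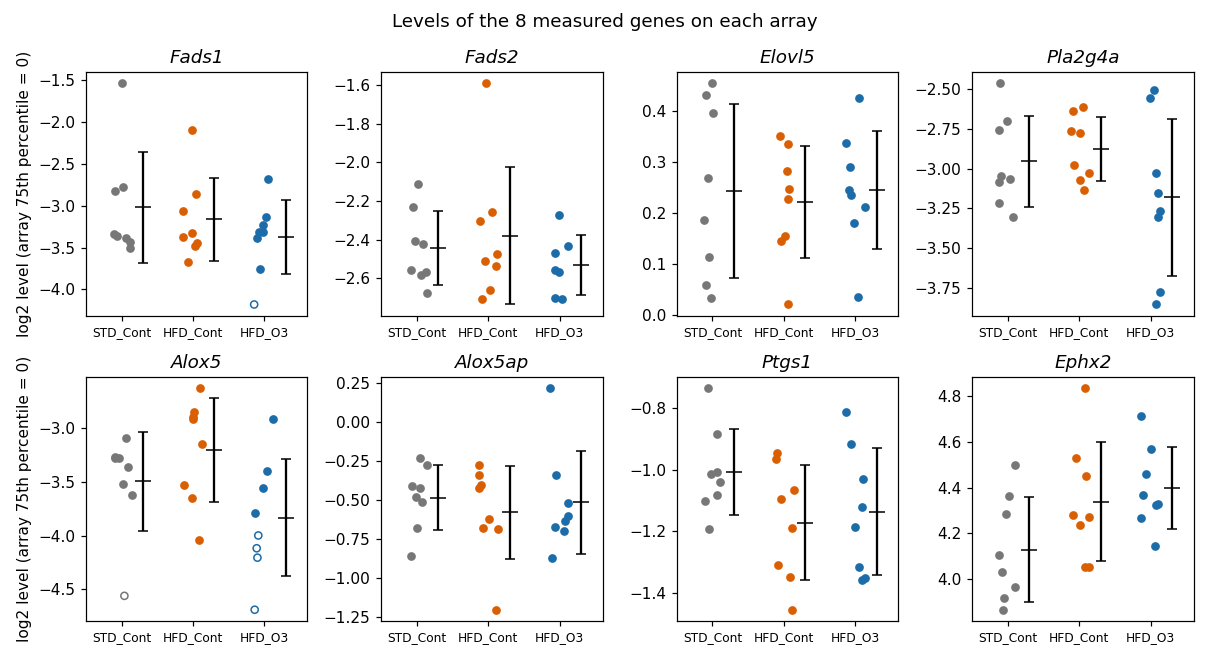
Log2 level of each of the 8 measured genes on every array, relative to the array's 75th percentile, by group. Points are arrays, filled where the probe was well above background and open where it was not, and bars give the group mean ± SD. The groups overlap in all 8 panels, and the open points are mainly those of Alox5 in HFD_O3, where 4 of 8 arrays were well above background.

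The neighbouring genes of the route gave the same count. In 8 lists of 146 genes, which leave out the 10 above, 105 genes were measured, and 0 rose and 0 fell past the threshold in any of the 3 comparisons. These counts stand beside 0% of all names for lineage, 3.16% for diet and 0.597% for HFD_O3 against STD_Cont. The list medians lay between -0.17 and 0.17 on the log2 scale, both from a list of 3 measured genes. The smallest adjusted p of any list gene was 0.0605. Values that follow are of the genes with the smallest p in each list, and none of them passed.

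Of the elongation and activation genes, 22 of 25 were measured. Elovl1, an elongase of saturated and very long chains, differed by 0.18 ± 0.06 for HFD_Cont against STD_Cont (adjusted p 0.0863) and by -0.16 ± 0.06 for HFD_O3 against HFD_Cont (adjusted p 0.608). Scd2, a desaturase that makes monounsaturated acids, differed by -0.55 ± 0.15 for HFD_O3 against STD_Cont (adjusted p 0.103). All 16 regulators of the desaturases were measured. Srebf1, the sterol-regulated factor that drives Fads1 and Fads2, differed by -0.25 ± 0.11 for diet (adjusted p 0.264) and its inhibitor Insig1 by -0.67 ± 0.32 (adjusted p 0.282).

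Among phospholipases and reacylation enzymes, 22 of 26 were measured. Lpcat3, which puts arachidonic acid back into phospholipids, differed by -0.22 ± 0.06 for diet (adjusted p 0.0605) and by 0.12 ± 0.06 for lineage (adjusted p 0.708). Mgll, which frees arachidonic acid from an endocannabinoid, differed by 0.30 ± 0.09 for diet (adjusted p 0.0635) and by 0.29 ± 0.09 for HFD_O3 against STD_Cont (adjusted p 0.135). Dagla, which makes that endocannabinoid, differed by -0.28 ± 0.10 for lineage (adjusted p 0.608).

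Downstream of the cyclooxygenases, 15 of 16 synthesis and breakdown genes and 4 of 9 receptors were measured. For lineage, the prostacyclin synthase Ptgis differed by -0.35 ± 0.15 (adjusted p 0.638), and the prostacyclin receptor Ptgir by -0.25 ± 0.09 (adjusted p 0.608). The prostaglandin E2 receptor Ptger4 differed by 0.51 ± 0.20 for lineage (adjusted p 0.623) and by -0.41 ± 0.20 for diet (adjusted p 0.295). The prostanoid exporter Abcc4 differed by -0.20 ± 0.07 for diet (adjusted p 0.126).

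Of 17 other leukotriene and lipoxygenase genes, 10 were measured. Dpep1, a dipeptidase that trims cysteinyl leukotrienes, differed by -0.43 ± 0.14 for diet (adjusted p 0.0863), and Ltc4s, which makes them, by 0.28 ± 0.14 (adjusted p 0.315). For lineage, the smallest p was that of Mgst3, a related glutathione transferase, at -0.13 ± 0.07 (adjusted p 0.715). Of 26 epoxygenase, hydroxylase and epoxide hydrolase genes, 13 were measured. Cyp1b1 differed by -0.78 ± 0.25 for diet (adjusted p 0.0924), and Cyp2c55 by 0.45 ± 0.16 for lineage (adjusted p 0.608). Of 11 fatty acid and resolution receptors only 3 were measured, with a smallest adjusted p of 0.680 in any comparison.

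Apart from the groups, the genes differed in how they varied from mouse to mouse. Deviations from the group means were correlated over the 24 arrays for the 28 pairs of the 8 genes, with 100000 permutations within groups and Benjamini-Hochberg adjustment over the pairs. Of the 28 pairs, 1 passed the threshold, Alox5 with Alox5ap. What share of all gene pairs would pass the same test was not counted. Fads1 and Fads2, neighbours on chromosome 19 and steps of 1 route, had a Pearson r of 0.04 (permutation p 0.855) and a Spearman rho of 0.18 (permutation p 0.405) over 23 arrays.

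The array with the lowest Alox5 was also the array with the lowest Alox5ap in each group, STD_Cont 1, HFD_Cont 6 and HFD_O3 8. The array with the highest Alox5 was likewise that with the highest Alox5ap, STD_Cont 6, HFD_Cont 1 and HFD_O3 4. On STD_Cont 1 and HFD_O3 8 the Alox5 probe was not well above background, and r was not taken over detected arrays alone. Over all 24 arrays Pearson's r was 0.77 (permutation p 5e-05, adjusted p 0.0014) and Spearman's rho 0.64 (permutation p 0.00157, adjusted p 0.0440). Without the 2 arrays farthest from the median in Alox5, r was 0.72, and within slides 1, 2 and 3 it was 0.77, 0.73 and 0.85.

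Pla2g4a varied in the same direction as both. Its r was 0.56 with Alox5 (permutation p 0.00766; rho 0.41, permutation p 0.0577) and 0.56 with Alox5ap (permutation p 0.00644; rho 0.52, permutation p 0.0121). The adjusted p of both Pearson values was 0.0536, so neither passed. With deviations taken from the mean of each group on each slide they did, at r of 0.62 for both and adjusted p of 0.0311 and 0.0343. Arrays were still shuffled over the whole group there, not within slides, so those p-values can be too small and decide nothing. Without the 2 farthest arrays r was 0.43 and 0.46. Alox5ap with Ephx2 had an r of 0.55 (permutation p 0.00612, adjusted p 0.0536; rho 0.47, permutation p 0.0252), and an adjusted p of 0.0485 with quantile normalization, but r was -0.13 within slide 1 against 0.49 and 0.95 within slides 2 and 3.

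Whether the genes moved with the other cells that a muscle sample holds was measured with mean levels of marker genes. Macrophage markers were measured for 11 of 12 genes, with a mean log2 level of -1.08 to -0.54 in STD_Cont, -1.32 to -0.39 in HFD_Cont and -1.42 to -0.16 in HFD_O3. Of the macrophage markers, the scavenger receptor Cd163 fell by 0.57 ± 0.16 on the log2 scale for HFD_Cont against STD_Cont (adjusted p 0.0481), and the other 10 measured did not pass in any comparison. White adipocyte markers were measured for 8 of 8 genes, at -0.86 to 2.31, -0.59 to 3.39 and -0.73 to 2.78 in the same order, the widest range of any marker list. Of the 16 relations of the 8 genes with these 2 lists, 3 passed, all with macrophage markers. What share of all names would pass against these lists, or against the other lists below, was not counted. The counts are thus not shown to be particular to the 8 genes.

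Alox5 followed the macrophage level with r of 0.80 (permutation p 3e-05, adjusted p 0.00048) and rho of 0.76 (permutation p 0.00014, adjusted p 0.00224). The arrays at the ends of the macrophage level within a group were also at the ends for Alox5 in 3 of 6 cases, STD_Cont 1 and HFD_O3 8 at the low end and HFD_O3 4 at the high end. In the other 3 they differed: HFD_Cont 8 was lowest for macrophages and HFD_Cont 6 for Alox5, HFD_Cont 2 and 1 were the highest, and STD_Cont 4 and 6. On the matching low arrays, STD_Cont 1 and HFD_O3 8, the Alox5 probe was not well above background. Without the 2 arrays farthest from the median r was 0.76, and within the slides it was 0.59, 0.93 and 0.75. Alox5ap had r of 0.65 (permutation p 0.00339, adjusted p 0.0271) and rho of 0.47 (permutation p 0.0247, adjusted p 0.198). Its r was 0.42 without the 2 farthest arrays and 0.48, 0.75 and 0.37 within the slides, and the relation missed the threshold with deviations taken by group and slide (r 0.59, adjusted p 0.0730). Pla2g4a had r of 0.61 (permutation p 0.00546, adjusted p 0.0291) and rho of 0.44 (permutation p 0.0440, adjusted p 0.234), with r of 0.52 without the 2 farthest arrays and 0.17, 0.72 and 0.78 within the slides.

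With the macrophage level as a covariate in the fit, an alternative added after the data were seen, the lineage difference in Alox5 was -0.54 ± 0.15 (unadjusted p 0.00165, adjusted p 0.476). Of the 11 macrophage markers measured, 3 lay above 0 for lineage, with a median of -0.071. With the white adipocyte level as a covariate the difference was -0.55 ± 0.25, and 1 of these 8 markers lay above 0 for lineage, with a median of -1.13. Fibroblast markers had a mean level of 2.42 to 2.89 in STD_Cont, 2.62 to 3.27 in HFD_Cont and 2.37 to 3.16 in HFD_O3. For lineage they lay above 0 in 0 of 7 genes, with a median of -0.25, and none passed. With the fibroblast level as a covariate, also added after the data were seen, the lineage difference was -0.23 ± 0.17 in Alox5 (unadjusted p 0.193), -0.13 ± 0.16 in Pla2g4a and 0.22 ± 0.13 in Alox5ap, with an adjusted p of 0.977 for all 3. The fibroblast level followed Alox5 over arrays (r 0.77) and was itself lower in HFD_O3 than in HFD_Cont. Such a covariate takes up part of a difference whatever its source, so the smaller Alox5 value decides nothing. The source of the difference was not tested. None of the 8 genes passed with the white adipocyte markers, where r ran from -0.33 for Elovl5 to 0.27 for Fads1.

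The other 8 marker lists with a measured gene were looked at after these values were seen, in a further 64 relations. Elovl5 followed the endothelial markers, 8 of 8 measured and including Pecam1 and Cdh5, with r of 0.78 (permutation p 2e-05, adjusted p 0.00128) and rho of 0.79 (permutation p 6e-05, adjusted p 0.00384). The r was 0.79 without the 2 farthest arrays and 0.78, 0.95 and 0.85 within the slides. Between groups, 5 of the 8 endothelial markers lay above 0 for diet (median 0.02), 7 for lineage (median 0.11) and 8 for HFD_O3 against STD_Cont (median 0.17), where Elovl5 differed by -0.02, 0.02 and 0.00. Of the 24 tests of these markers 1 passed, that of the growth factor receptor Kdr for diet, at 0.46 ± 0.10 (adjusted p 0.0205). Alox5 also followed the fibroblast markers, with r of 0.77 (permutation p 0.0001, adjusted p 0.0032), rho of 0.75 (permutation p 0.00022, adjusted p 0.00704) and r of 0.73 without the 2 farthest arrays. Within the slides this was 0.77, 0.97 and 0.52. Alox5ap and Pla2g4a had r of 0.55 and 0.50 with the fibroblast markers (permutation p 0.0118 and 0.0431, adjusted p 0.151 and 0.251). No other relation of the 64 passed, but 2 did under an alternative. Fads2 with endothelial markers had r of 0.53 (permutation p 0.0224, adjusted p 0.218; rho 0.32, permutation p 0.168), and 0.70 with deviations by group and slide (adjusted p 0.0194), with 0.97, 0.67 and -0.084 within the slides. The p by group and slide came from shuffling over whole groups and can be too small. Alox5ap with the 2 platelet markers had r of 0.64 (permutation p 0.00261, adjusted p 0.0557; rho 0.50, permutation p 0.0174), and passed with quantile normalization (adjusted p 0.0482). Fads1 with the lymphocyte markers did not pass, at r of 0.61 (permutation p 0.0238, adjusted p 0.218) and rho of 0.24 (permutation p 0.266). STD_Cont 4 and HFD_Cont 2 were the highest of their groups in both, while in HFD_O3 the highest arrays differed. Eosinophil markers were measured for 0 of 6 genes, platelet markers for 2 of 8 and neutrophil markers for 6 of 10, without the defining genes Ngp and Ltf.

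**Figure D3:**
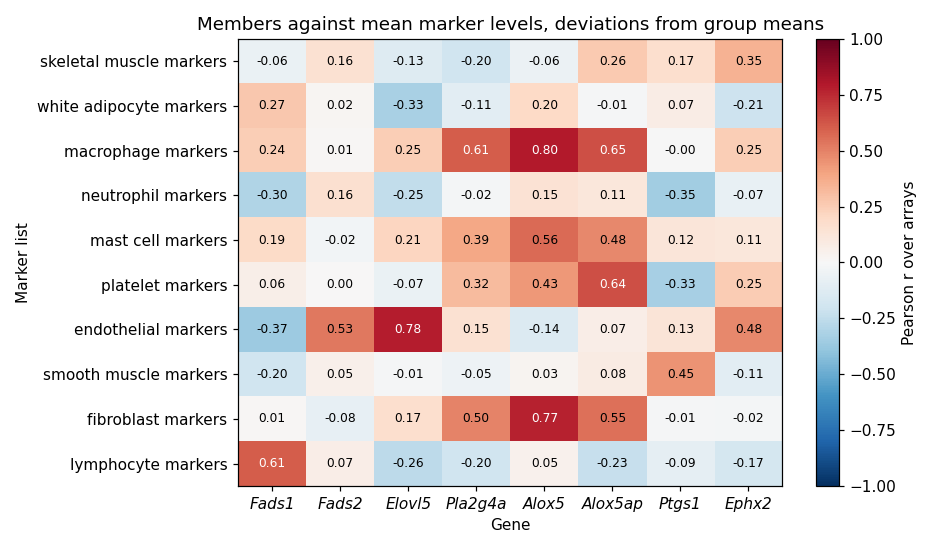
Pearson r over arrays (24, or 23 for Fads2) between each of the 8 genes and the mean level of each marker list, as deviations from the group means. The darkest cells are those of Alox5 with macrophage markers at 0.80, Elovl5 with endothelial markers at 0.78 and Alox5 with fibroblast markers at 0.77.

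The genes whose deviations were most like each member's were taken from about 14900 names with a plain symbol, so their r is the highest of many and carries no test. For Alox5 they were Ptgfrn at r of 0.88, Pf4 at 0.86 and C1qc at 0.83. C1qc encodes a complement chain made by macrophages, and Pf4 a chemokine of platelets and some macrophages. For Alox5ap they were Cd68, a macrophage lysosomal protein, at 0.82, then Alox5 at 0.77 and the lysosomal protease Ctsh at 0.76. For Pla2g4a they were Lyve1, a hyaluronan receptor of lymphatic vessels and tissue macrophages, at 0.86, Abca6 at 0.80 and Mfap5 at 0.74. Without the 2 arrays farthest from the median in the member, these 9 values ran from 0.64 for Cd68 to 0.84 for Pf4. C1qc and Cd68 are among the macrophage markers used above, and Pf4 is among the platelet markers. Their r is thus not independent of the relations with those marker levels.

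For Ephx2 the most alike genes were Cpt2, Acaa2 and Ech1, at r of 0.92, 0.87 and 0.86. All 3 encode enzymes of mitochondrial fatty acid oxidation: Cpt2 completes the import of long acyl chains, Acaa2 is the thiolase and Ech1 an auxiliary isomerase. The values were 0.87, 0.84 and 0.84 without the 2 farthest arrays. For Elovl5 they were Arhgap29 at 0.78, Shroom4 at 0.77 and Cr1l at 0.75, and for Ptgs1 Id4 at 0.71, Bmx at 0.65 and Trim46 at 0.65. Fads1 had Snai3 at 0.82, which fell to 0.48 without the 2 farthest arrays, Zfp219 at 0.78, which fell to 0.63, and the B cell receptor gene Cd79b at 0.77, which fell to 0.39. Cd79b is itself among the lymphocyte markers. Fads2 had 1700027A15Rik at 0.81, A4galt at 0.76 and Prrxl1 at 0.72 over 23 arrays, which fell to 0.48, 0.33 and 0.34.

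**Figure D4:**
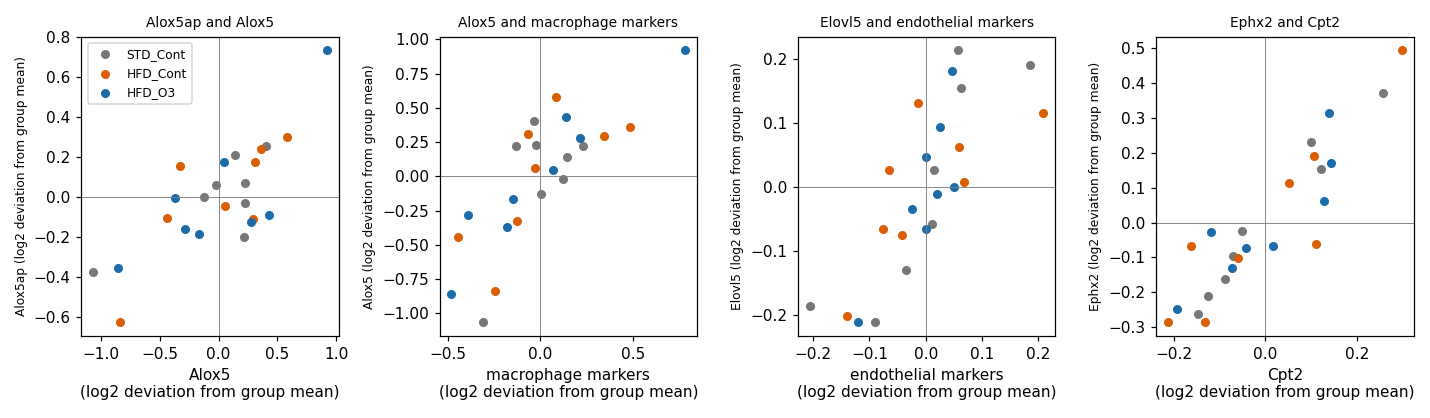
Deviations from the group mean on the log2 scale for Alox5ap against Alox5, Alox5 against the mean macrophage marker level, Elovl5 against the mean endothelial marker level, and Ephx2 against Cpt2. Each point is 1 of 24 arrays, coloured by group, and Pearson's r is 0.77, 0.80, 0.78 and 0.92 from left to right.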

How the data were processed

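Total RNA of 24 mouse skeletal muscle samples was labelled with Cy3 from 200 ng, per the labels' protocols. The authors deposited scanner files whose spot intensity was read with Agilent Feature Extraction 10.10.1.1, per the file headers, as raw pixel values and as a background-subtracted processed intensity without normalization across arrays. The authors' deposited value table holds log2 values; limma is named in the submitters' processing notes. Its columns tracked the log2 median signal of their own arrays (lowest correlation 0.9996, 24 of 24 columns), with near-identical quantiles. How its probes were filtered is not stated in the labels.

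Spots marked non-uniform or outlying were dropped, the processed intensity was averaged over the spots of each probe, and log2 values were set relative to each array's 75th percentile (234 to 430 in signal). Probes well above background on 6 of 8 arrays of at least 1 group were kept, and the kept probe with the highest mean stood for a gene. Symbols came from the RefSeq table for 32994 of 56605 probes and from the array design otherwise. limma 3.58.1 in R 4.3.3 (lmFit, eBayes, two-sided, no block) was fitted to all 24 arrays and 19937 names, with Benjamini-Hochberg adjustment and a threshold of 0.05. An earlier analysis of these data counted another number of names for HFD_Cont against STD_Cont, and the cause was not found. The design text gives 8 mice per group and the labels name no litters, so p-values measure the spread between these samples, whose number limits the precision. The highest correlation between 2 arrays was 0.995, so none held identical values. Permutation tests over arrays were two-sided. In simulated data, log2 changes of 0.5 and 1 were set in 100 genes each. Of these, 71 and 95% were recovered for HFD_O3 against HFD_Cont. The shares were 69 and 90% for HFD_Cont against STD_Cont, and 72 and 92% for HFD_O3 against STD_Cont. Of 19681 unchanged genes, 8, 10 and 7 were called in the same order. These shares are over genes of all spreads and do not hold for a single dim gene such as Alox5 or Fads1. With that many genes changed, the adjusted threshold is also easier to reach than for lineage, where 0 names passed.

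The 10 genes, the pathway and marker lists and the tests were chosen with earlier results of these data known. Named were all 10 genes, up to 4 genes of a list past the threshold or otherwise up to 2 with the smallest p, and the 3 genes most correlated with each member. Alternatives were normexp (offset 50), quantile normalization, scaling on the median, the deposited table, an unfiltered fit, the mean of a gene's probes, slide, slide and array row or replicate number as a block, each slide alone, only the 2 groups, marker levels as covariates, trend and robust variance, and each array left out. Added after the data were seen were every kept probe by itself, the macrophage and fibroblast levels as covariates, the other marker lists, and HFD_O3 arrays 1 and 7, which stood apart in an earlier analysis of these data, left out together. Most same-numbered samples of different groups did not deviate together: 6 of 24 such pairs had a correlation over 0.1 (-0.14 to 0.37). All pairs of number 4 were among these 6, at 0.31, 0.37 and 0.16, and shared a slide, so pairing and slide cannot be told apart there. The numbers were not taken as pairs. Figures were drawn with matplotlib 3.10.9, and files were read with pandas 2.3.3.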

Additional observations from a re-analysis of the deposited data

Results flagged for a closer look

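In 4 of 24 combinations of a gene and a group, 1 array stood apart from the other arrays of its group by Dixon's criterion. With normally distributed values chance meets it in about 1 of 20 groups. The share over all names on these arrays was not counted, so the number is not shown to be particular to these genes. Fads1 was at -1.53 in STD_Cont 4, against -3.50 to -2.77 in the others. Fads2 was at -1.59 in HFD_Cont 3, against -2.71 to -2.26. Alox5 was at -4.56 in STD_Cont 1, against -3.62 to -3.09, and the probe was not well above background on that array. Alox5ap was at -1.21 in HFD_Cont 6, against -0.69 to -0.28, and its second probe was also lowest there, at -2.60.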

How the results depend on the processing

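In all 18 alternative settings run on the fit and with each array left out in turn, 0 of the 8 genes passed in each of the 3 comparisons (0 to 0). The smallest adjusted p over the arrays left out was 0.389 for HFD_O3 against HFD_Cont, 0.234 for HFD_Cont against STD_Cont and 0.222 for HFD_O3 against STD_Cont. With the replicate block, which could not be shown to be a pairing, the count was 0 in each comparison, and the difference in Alox5 for lineage was -0.63 with an adjusted p of 0.519. Of 438 values of single genes under alternatives, 34 changed sign, and the cause was not tested.

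For lineage these were Fads1 at 0.19 on slide 3 and 0.010 at its second probe, Elovl5 at -0.033 on slide 3, -0.010 with the adipocyte covariate and -0.0045 without HFD_O3 arrays 1 and 7 together, and, on slide 1, Alox5ap at -0.17, Ptgs1 at -0.14 and Ephx2 at -0.26. For diet they were Fads1 at 0.24, Elovl5 at 0.050 and Alox5ap at 0.34 on slide 1, and Fads2 at -0.017, Elovl5 at 0.012, Alox5 at -0.17 and Pla2g4a at -0.15 on slide 3. With a block for slide and array row, Fads2 was at -0.0013, Elovl5 at 0.00099 and Pla2g4a at -0.042, with the adipocyte covariate Elovl5 was at 0.0071, and with the fibroblast covariate Alox5 was at -0.039 and Pla2g4a at -0.069. For HFD_O3 against STD_Cont, Elovl5 was at -0.0048 with normexp, -0.00060 with quantile normalization, -0.0065 in the authors' deposited table, -0.047 on slide 2, -0.022 on slide 3, -0.0031 with the adipocyte covariate and -0.027 without HFD_O3 arrays 1 and 7. Alox5ap was at 0.17 on slide 1, 0.15 on slide 2, 0.019 without those arrays and 0.073 with the macrophage covariate, Fads2 at 0.0072 on slide 2 and Ptgs1 at 0.029 on slide 3. Leaving out 1 array turned the sign in 20 of 576 fits. The ranges were -0.0047 to 0.054 (Elovl5), -0.041 to 0.11 (Alox5ap) and -0.011 to 0.068 (Ptgs1) for lineage, -0.30 to 0.067 (Fads1), -0.049 to 0.11 (Fads2) and -0.052 to 0.0084 (Elovl5) for diet, and -0.028 to 0.032 (Elovl5) and -0.14 to 0.019 (Alox5ap) for HFD_O3 against STD_Cont.

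Pairs past the threshold numbered 1, and 3 both by group and slide (Alox5 with Alox5ap, and each with Pla2g4a) and with quantile normalization (Alox5 with Alox5ap, Alox5 with Pla2g4a, Alox5ap with Ephx2). The p-values by group and slide came from shuffling over whole groups, so that count can be too high. The calls over all names behind the shares above moved more. For diet, 630 names became 177 with median scaling (40.7% of them higher, against 51.9%), 136 without the filter, 78 with slide and array row, 375 with the adipocyte covariate, 112 with the fibroblast covariate, 1190 with only the 2 groups and 1216 without HFD_O3 arrays 1 and 7, and 203 to 993 with 1 array left out. For HFD_O3 against STD_Cont, 119 became 62 (median scaling), 48 (no filter), 51 (slide and array row), 41 (only the 2 groups) and 68 to 328 (1 array left out). Each slide alone called 0 in every comparison. For lineage the count was 0 in every setting and 0 to 2 with 1 array left out, 2 without HFD_Cont 3. Signal over background limits Alox5, Alox15, Ptgs2 and the second Fads1 probe most.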
